A study of Mus musculus with 4 samples.

Results

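The miR-29 family was followed on both strands in mouse abdominal skin 24 hr after topical shikonin or acetone. Its members were taken by name from the first column of the spot table, as mmu-miR-29a, mmu-miR-29b and mmu-miR-29c (the guide strands) and mmu-miR-29a*, mmu-miR-29b* and mmu-miR-29c* (the passenger strands), 6 of the 710 microRNAs (miRNAs) on the array. Shikonin, a naphthoquinone pigment of Lithospermum erythrorhizon roots, was applied at 10 μg/μl in 100 μl of acetone, and acetone alone was the solvent control, so both groups carried the solvent. There were 2 arrays of shikonin-treated and 2 arrays of acetone-treated skin, from female C57BL/6JNarl mice. The study speaks of the arrays of a group as biological replicates, but whether they came from separate animals is not stated there or in the labels. A p-value here rests on the spread between these samples alone, moderated over all miRNAs or pairs tested. That spread may be technical in part. Skin is a mixed tissue, so fewer cells of a type and less RNA per cell cannot be told apart.

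miRNAs are cut from a hairpin as a duplex. The guide strand is kept in an Argonaute protein and pairs with target mRNAs through its seed, whereas the passenger strand, marked with a star in older names, is mostly degraded. The guides of the miR-29 family are known for repressing mRNAs of the extracellular matrix, among them collagens, elastin and fibrillin, and of the DNA methyltransferases Dnmt3a and Dnmt3b. In fibroblasts their loss is a known feature of fibrosis, where TGF-β lowers them.

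The mature sequences were taken from RefSeq (build GRCm38.p6) and all 6 members were matched. The 3 guides are shown first because they share one seed, bases 2 to 8 from the 5′ end, which is given in capitals.
miR-29a: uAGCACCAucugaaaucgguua
miR-29b: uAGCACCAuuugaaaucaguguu
miR-29c: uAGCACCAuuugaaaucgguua
Of 1679 mature mouse miRNAs in that table, these 3 carried this seed. miR-29c differed from miR-29a at 1 of 22 bases, C10U (miR-29a base, position from the 5′ end, miR-29c base). miR-29b differed from miR-29a by C10U, G18A, U21G and A22U, and miR-29b shared its first 17 bases with miR-29c. The signals of miR-29a and miR-29c are therefore uncertain as separate measurements, since the sources used here do not say how far their probes tell them apart. miR-29b ends in AGUGUU, an ending known in human cells to direct miR-29b to the nucleus. Of mature mouse miRNAs, 2 of 1679 (0.119%) end in it, miR-29b and miR-92b-5p.

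The passenger strands are shown for contrast, again with bases 2 to 8 in capitals.
miR-29a*: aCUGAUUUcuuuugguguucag
miR-29b-1-5p: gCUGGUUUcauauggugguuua
miR-29b-2-5p: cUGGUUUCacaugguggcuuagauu
miR-29c*: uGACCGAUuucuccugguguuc
The name miR-29b* does not say which of the 2 miR-29b loci it stands for, so the 5′ arms of both are printed. Bases 2 to 8 of miR-29a*, miR-29b-1-5p and miR-29c* each occurred in 1 mature miRNA of the table, so these passengers share no seed with each other or with the guides. The ends of the array's probes follow an older miRBase release and may differ by a base from those printed.

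The hairpins show how each guide and passenger lie in one precursor, with the mature arms in capitals, the passenger first and the guide second.
Mir29a: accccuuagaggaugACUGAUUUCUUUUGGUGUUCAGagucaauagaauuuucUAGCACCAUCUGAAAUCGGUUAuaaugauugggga
Mir29b-1: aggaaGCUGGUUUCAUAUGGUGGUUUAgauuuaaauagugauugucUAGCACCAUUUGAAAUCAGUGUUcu
Mir29b-2: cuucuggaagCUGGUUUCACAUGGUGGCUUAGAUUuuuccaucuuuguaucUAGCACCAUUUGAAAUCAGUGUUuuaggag
Mir29c: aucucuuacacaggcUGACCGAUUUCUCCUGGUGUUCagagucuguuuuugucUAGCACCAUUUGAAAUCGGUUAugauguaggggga
In GRCm38.p6, Mir29a lies at chr6:31062660-31062747 and Mir29b-1 at chr6:31063023-31063093, both on the minus strand with 275 bases between them. Mir29b-2 lies at chr1:195037040-195037120 and Mir29c at chr1:195037547-195037634, both on the plus strand with 426 bases between them. The 2 Mir29b genes give the same guide, so the miR-29b signal cannot be assigned to either locus.

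Each miRNA had 8 spots on each array, and the median raw spot intensity of an array was 352 to 488. The background of an array was read as the median of 30 miRNAs typical of other tissues (brain, liver, pancreas, heart, embryonic stem cells and testis). The threshold for calling a miRNA above background was this level plus 3 scaled median absolute deviations of those 30. By this rule 207 and 281 miRNAs were above background on the shikonin arrays and 242 and 274 on the acetone arrays, with 175 on all 4 and 370 on none. Shikonin replicate 2 stood apart in 1 respect: spots in the first eighth of the table's rows had a median of 972, against 456 in the rest, whereas on the other 3 arrays this ratio was 1.0 to 1.24. Of the miRNAs typical of skin cells, 4 of 7 for keratinocytes and 7 of 7 for fibroblasts and mesenchyme were above background on all 4 arrays, and the other 3 keratinocyte miRNAs were so on 2 or 3 arrays.

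miR-29a lay well above background on every array and was dimmer after shikonin. Its median raw spot was 1152 and 1444 on the shikonin arrays and 3749 and 3593 on the acetone arrays. Relative to the background of the same array, which needs no scaling between arrays, these were 3.47 and 3.42 times background after shikonin and 12.1 and 9.87 times after acetone. The groups did not overlap. After quantile normalization, which gives all arrays the same set of values, its log2 intensity was 10.62 ± 0.21 in shikonin-treated and 11.48 ± 0.21 in acetone-treated skin (SD, n = 2 each). The log2 fold change, shikonin minus acetone, was -0.86 (SE 0.17), 1.81-fold lower, with a limma adjusted p of 0.143 over all 710 miRNAs.

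miR-29b had a median raw spot of 448 and 508 on the shikonin arrays and 1096 and 860 on the acetone arrays. It came close to background after shikonin, at 1.35 and 1.2 times the background level, against 3.54 and 2.36 times on the acetone arrays. On shikonin replicate 1 its 448 stood just over the threshold of 447.6. Both shikonin arrays lay under both acetone arrays, and the acetone arrays lay far apart. The normalized log2 intensity was 8.84 ± 0.12 in shikonin-treated and 9.84 ± 0.51 in acetone-treated skin (SD, n = 2 each), a log2 fold change of -1.0 (SE 0.28, limma adjusted p = 0.190).

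miR-29c had a median raw spot of 408 and 564 on the shikonin arrays and 712 and 852 on the acetone arrays. This was 1.23 and 1.34 times background after shikonin and 2.30 and 2.34 times after acetone, with no overlap. It was above background on 1 of the 2 shikonin arrays, replicate 2, and on both acetone arrays. The normalized log2 intensity was 8.85 ± 0.11 in shikonin-treated and 9.59 ± 0.19 in acetone-treated skin (SD, n = 2 each). Its log2 fold change was -0.74 (SE 0.13, limma adjusted p = 0.134).

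The passenger strands were not above background on any array. miR-29a* had a median raw spot of 320 and 392 on the shikonin arrays and 280 and 352 on the acetone arrays. miR-29b* had 312 and 384 on the shikonin arrays and 272 and 344 on the acetone arrays, and miR-29c* had 316 and 416 on the shikonin arrays and 292 and 360 on the acetone arrays. The groups overlapped for each of the 3, and all values lay between 0.877 and 0.989 times the background of their array. Their measured log2 differences after normalization were 0.03 (SE 0.08) for miR-29a*, 0.03 (SE 0.08) for miR-29b* and 0.01 (SE 0.08) for miR-29c*, with limma adjusted p of 0.896 to 0.962. As no passenger was above background in either group, these values are not read as folds. A change of a passenger strand was not detectable at this signal. The same held for most passengers of the array, as 80 of 119 starred miRNAs were above background on no array, against 290 of the 591 others.

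**Figure D1:**
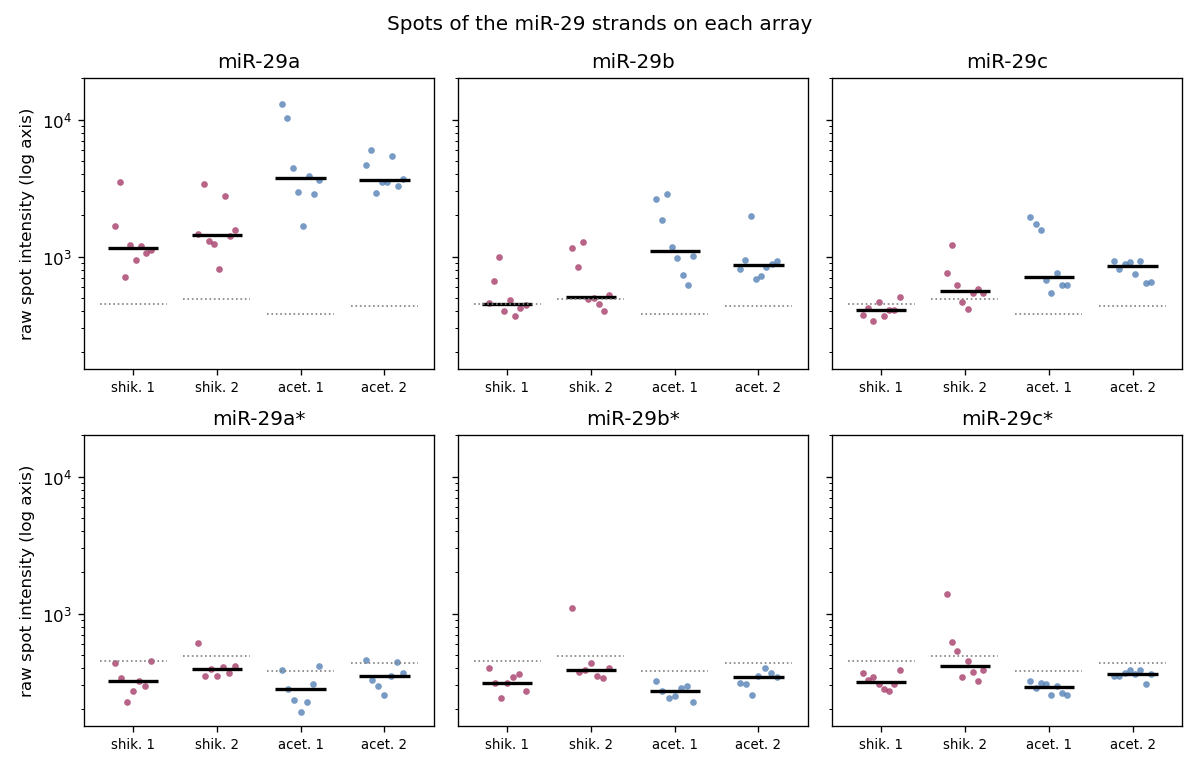
Raw intensity (log axis) of each spot of the 6 miR-29 strands on the 2 shikonin (purple) and 2 acetone (blue) arrays; black bars are medians of the spots and dotted lines the background threshold of the array. The guide medians on the shikonin arrays lie below those on the acetone arrays (1152 and 1444 against 3749 and 3593 for miR-29a), and the passenger medians lie under the threshold on every array.

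The spots of a miRNA are technical repeats, but each row of the table is the same position on all 4 arrays, so they could be compared position by position. The spread between spots was wide. On acetone replicate 1 the 8 spots of miR-29a ran from 1664 to 13067, and on shikonin replicate 1 from 704 to 3489. Even so, both shikonin values were under both acetone values at 8 of 8 positions for miR-29a, 7 of 8 for miR-29b and 7 of 8 for miR-29c. Over all 5282 complete positions of the array this was so at 13.6%. For the passengers it was so at 0 of 7, 0 of 7 and 0 of 8 positions, where 1 position each of miR-29a* and miR-29b* was empty on all 4 arrays. With every array divided by its own median spot, the counts were again 8, 7 and 7 for the guides and 1, 0 and 2 for the passengers, against 26.1% of all positions. Both shares are over all miRNAs, of which 370 were above background on no array, and the share at positions of brighter miRNAs was not computed. By miRNA, the groups did not overlap in the lower direction for 26.8% of all and 43.4% of the 175 above background on all 4 arrays. The counts describe the spots of 4 arrays and are not a test between treatments.

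The test asked which strands of the family differed between shikonin-treated and acetone-treated skin. None of the 6 passed at an adjusted p of 0.05 in limma over all 710 miRNAs, where 0.282% were called, 2 higher and 0 lower. With every array scaled by its 75th percentile over all miRNAs the calls were 0 higher and 2 lower, none of them a miR-29 strand. At an unadjusted p under 0.05 there were 78 lower miRNAs (11%) and 47 higher (6.62%). The guides were 3 of those 78 by unadjusted limma p (0.00732 for miR-29a, 0.0230 for miR-29b and 0.00531 for miR-29c), and 33.7% of the 175 miRNAs above background on all 4 arrays were too. The groups did not overlap in the lower direction for 3 of 3 guides and 0 of 3 passengers, against 26.8% of all miRNAs and 43.4% of those 175. In the higher direction it was 0 of 6, against 22.4% of all and 30.3% of the 175. The median log2 fold change was -0.86 over the guides, against -0.01 over all miRNAs and -0.09 over the 175. The measured median over the passengers, all at background, was 0.03. From the lowest, miR-29b ranked 28th and miR-29a 39th among those 175 fold changes, so many bright miRNAs lay lower still. With 2 arrays against 2, the smallest two-sided p of an exact permutation test is 0.333, so none was run.

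**Figure D2:**
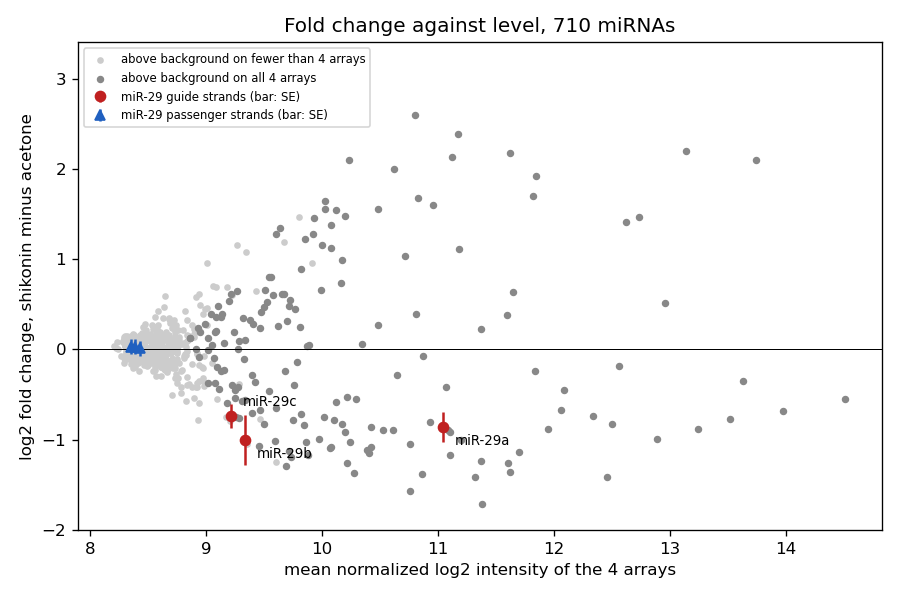
Log2 fold change, shikonin minus acetone, against the mean normalized log2 intensity of the 4 arrays, for all 710 miRNAs (points) with the miR-29 guides (red circles) and passengers (blue triangles), bars showing the SE. The guides lie at -0.86, -1.0 and -0.74 among other miRNAs of their level, and the passengers lie near 0 within the cloud of miRNAs at background.

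Whether guide and passenger differed in their change was tested directly. For each of the 107 miRNAs with a starred partner, the log2 intensity of the passenger was subtracted from that of the guide on the same array, and this difference was compared between groups in limma. Guide here means the unstarred name. In some pairs, such as miR-34c and miR-467a, only the starred strand was above background. The probes of a pair can differ in sensitivity, so only the change of the difference is of use, not its size on one array. For miR-29a it was 2.06 and 2.37 on the shikonin arrays and 3.28 and 2.93 on the acetone arrays. For miR-29b it was 0.55 and 0.38 on the shikonin arrays and 1.89 and 1.10 on the acetone arrays, and for miR-29c 0.38 and 0.45 on the shikonin arrays and 1.31 and 1.02 on the acetone arrays. The groups did not overlap for any of the 3 pairs.

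The change of the guide minus that of the passenger was -0.89 (SE 0.22, limma adjusted p = 0.0813) for miR-29a, -1.03 (SE 0.31, adjusted p = 0.104) for miR-29b and -0.75 (SE 0.19, adjusted p = 0.0813) for miR-29c. None of the 3 passed in limma, nor did any other of the 107 pairs (0%), although 35 (32.7%) were lower and 0 higher at an unadjusted p under 0.05, and 53.5% of the 43 pairs whose guide was above background on all 4 arrays. Because the passengers were at background, this difference holds nearly the same number as the guide's own fold change. It was also common on the array. The groups did not overlap in the lower direction for 63.6% of all 107 pairs and for 86% of the 43 with a bright guide, which had a median of -0.75. In the higher direction it was 4.67% of the 107. In 26 of those 43 the passenger was above background on no array, as in the miR-29 family, and these had a median of -0.89, with 23 of 26 (88.5%) not overlapping. The miR-29 pairs ranked 27th (miR-29a), 19th (miR-29b) and 32nd (miR-29c) from the most negative of 107. These ranks and the shares over 107 include pairs whose difference came from a higher starred strand. In the most negative, miR-467d (-2.49), the starred strand was at 2.39 and the unstarred at -0.10.

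**Figure D3:**
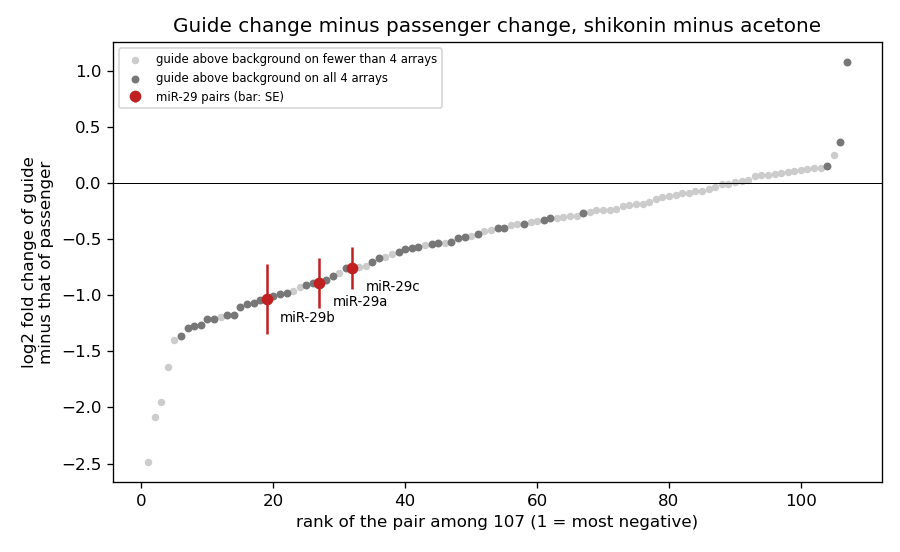
Change of the guide minus change of the passenger (log2, shikonin minus acetone) for all 107 guide and passenger pairs in order of size; red points are the miR-29 pairs with their SE. The miR-29 pairs at -0.89, -1.03 and -0.75 stand at ranks 27, 19 and 32, inside the range of the pairs with bright guides. miR-29c is not itself such a pair, as its guide was above background on 3 arrays.

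Other miRNAs with a known role in fibrosis and matrix remodelling were set beside the family, as a list of 16 that holds no miR-29 and shares 6 with the cell type lists. Of these 15 had a log2 fold change below 0 and 1 above, with a median of -0.74, and 0 passed in limma (7 lower and 0 higher at an unadjusted p under 0.05, where 11% of all miRNAs and 33.7% of the 175 bright ones were lower). The groups did not overlap in the lower direction for 10 of 16, against 26.8% of all miRNAs and 43.4% of the 175, and 11 of the 16 were among those 175. miR-24 had the most negative value, -1.42 (SE 0.25, limma adjusted p = 0.134). miR-214, a miRNA of mesenchyme, had the one value above 0, 1.11 (SE 0.57, adjusted p = 0.451), with 10.95 and 12.53 on the shikonin arrays and 10.56 and 10.69 on the acetone arrays. miR-21, which promotes fibrosis in several organs, overlapped between groups, with -0.42 (SE 0.37).

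Most miRNAs typical of keratinocytes, fibroblasts and striated muscle lay on the same side of 0 as the guides. All 7 keratinocyte miRNAs were below 0 (median -1.05, from miR-203 at -1.71 to miR-429 at -0.72), with a summed normalized intensity of 3634.5 to 7318 on the shikonin arrays and 11401 to 13121 on the acetone arrays. Of 7 fibroblast and mesenchyme miRNAs 6 were below 0 (median -0.99, from miR-199a-3p at -1.57 to miR-214 at 1.11), with sums of 10185 to 13860 on the shikonin arrays and 15897 to 18640 on the acetone arrays. All 4 striated muscle miRNAs were below 0 (median -0.80, from miR-1 at -1.38 to miR-133a at -0.78), with sums of 3298.5 to 4284 on the shikonin arrays and 5442 to 10350 on the acetone arrays. Of 5 leukocyte miRNAs 4 were below 0, with a median of -0.11 (from miR-150 at -0.41 to miR-223 at 0.40), and their sums overlapped at 3150 to 4792.5 on the shikonin arrays and 3376 to 3822 on the acetone arrays. Only 2 of these 5 were above background on all 4 arrays, and 2 (miR-142-3p and miR-155) on none. The leukocyte median is the value of miR-155, so it does not measure a change. miR-150 was above background on the acetone arrays only. As background was not subtracted, no miRNA could be at 0 on an array, so a value above 0 is not detection. Among keratinocyte miRNAs, miR-141 was above background on the acetone arrays only. In these lists 0 miRNAs passed in limma. At an unadjusted p under 0.05, 6 keratinocyte, 6 fibroblast, 1 muscle and 1 leukocyte miRNA were lower and 0 higher, where 11% of all miRNAs and 33.7% of the 175 bright ones were lower and 6.62% of all were higher. The part of cell composition in the miR-29 values was not tested.

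The miRNAs most like the guides over the 4 arrays were found by the distance between centred log2 profiles, against the mean of miR-29a, miR-29b and miR-29c. This mean was 9.39 and 9.48 on the shikonin arrays and 10.51 and 10.09 on the acetone arrays. Among 173 other miRNAs above background on all 4 arrays, the closest were miR-23b (distance 0.083), miR-26a (0.128), miR-143 (0.186), miR-30a (0.188) and miR-23a (0.193). Their log2 fold changes lay between -0.76 (miR-30a) and -0.99 (miR-26a). All 5 had their highest value on acetone replicate 1, as did the guide mean. With 4 arrays such likeness is a description only.

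The size of the guide values depended on single arrays and on the scaling, while all of them stayed below 0. Without acetone replicate 1 the log2 fold change was -0.62 for miR-29a, -0.65 for miR-29b and -0.63 for miR-29c. Without the repeat-rich miRNAs of the miR-297, miR-466, miR-467 or miR-669 groups, miR-29a was at -0.41, and with every array scaled by its 75th percentile it was at -1.58. Normexp background correction gave -0.95 for miR-29a, -1.45 for miR-29b and -1.12 for miR-29c. The deposited value table gave -1.95, -2.56 and -2.15. In every one of the 20 alternatives, single arrays left out included, the 3 guides stayed below 0. Leaving out single arrays could hardly show otherwise, since both shikonin arrays lay under both acetone arrays for each guide. Some other settings could not show otherwise at all. The intensity trend, robust variances, replicate block, filter on dim miRNAs and floor at the lowest quartile left the guide values unchanged, so they add nothing on direction. Scaling over bright miRNAs raised the median of all miRNAs to 0.63. The guides were then at -1.02, -0.54 and -0.21 (SE 0.35 each) and the passengers at 0.65 to 0.66, beside that median. The value of miR-29c was thus closer to 0 than its SE, so its direction was not settled there.

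**Figure D4:**
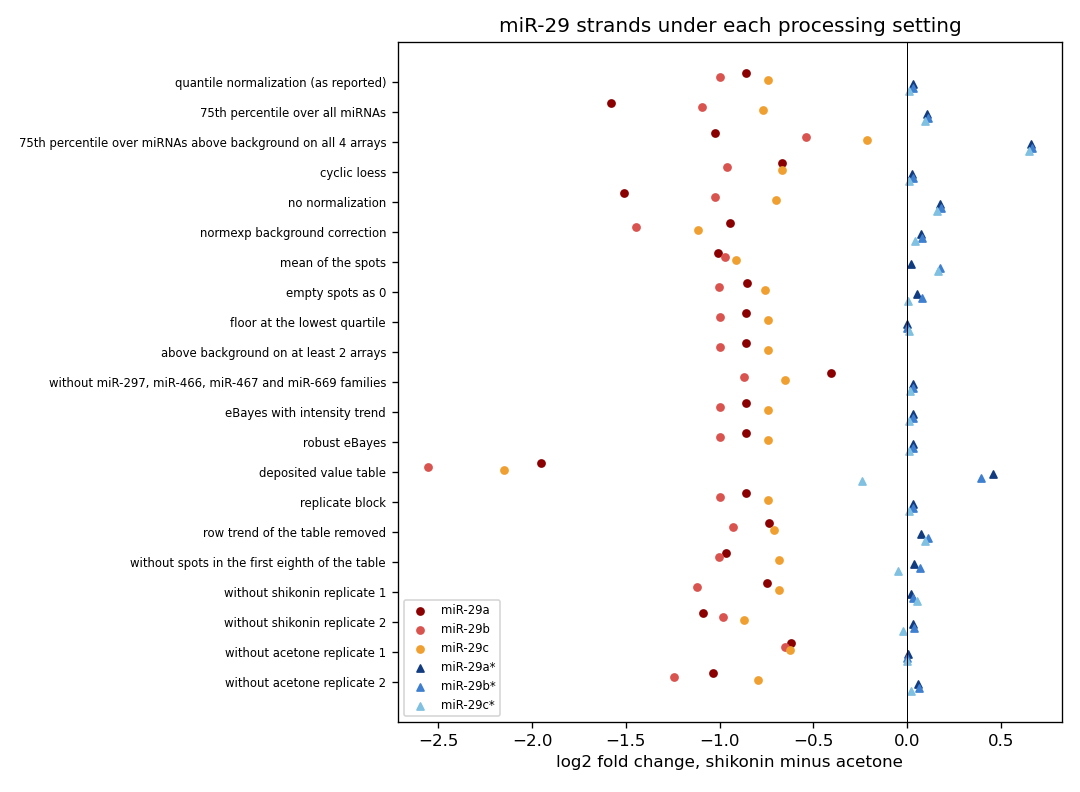
Log2 fold change, shikonin minus acetone, of each miR-29 strand (guides as circles, passengers as triangles) under each processing setting, one row per setting. The guides stay left of 0 in every row, between -2.56 and -0.21. The passengers, which were at background, lie between -0.24 (miR-29c* in the deposited value table) and 0.66 (scaling over bright miRNAs).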

How the data were processed

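Total RNA was hybridized to febit Geniom biochips, on which a captured miRNA primes an enzymatic extension with biotinylated nucleotides. In the spot table deposited by the authors, each value is the intensity of 1 spot on a linear scale, not normalized and without background columns. Their deposited value table gives log2 values, which their methods call quantile normalized, although its columns differ in median (6.43 and 6.11 for shikonin, 6.05 and 5.75 for acetone). Its direction followed the raw spots for the guides, but its summary of spots and its centring stay unknown, so it served as an alternative. Other alternatives changed the scaling, background, spot summary, floor, filter, variance model and arrays.

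The median of the spots was taken (empty spots left out), quantile normalized between the 4 arrays, floored at 1 and put on the log2 scale. Without background subtraction, folds of dim miRNAs are understated. limma 3.58.1 (R 4.3.3; lmFit, eBayes, two-sided, Benjamini-Hochberg) was run over all 710 miRNAs and over all 107 guide and passenger pairs, after tests on simulated data. eBayes draws the spread of each miRNA toward a value shared by all 710, of which 370 were above background on no array. The number of arrays limits the precision. The 6 members, the lists and the tests were chosen with earlier results of these data known. Named were the members, the 5 miRNAs most like the guides and the extremes of each list. miR-21 was named after its values had been seen.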

Additional observations from a re-analysis of the deposited data

How the results depend on the processing

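The 3 guides stayed below 0 in the 20 alternatives that gave them a value. This includes settings that left them unchanged (intensity trend, robust variances, replicate block, filter and floor). miR-29a* and miR-29b* did not go below 0, but at background their sign is not read. miR-29c* was at -0.24 in the deposited value table, at -0.049 without spots in the first eighth of the table (chosen after seeing the data), and between -0.024 and 0.051 with single arrays left out. The cause was not tested. With the filter on miRNAs above background on at least 2 arrays the passengers were not tested.

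For single strands in limma, miR-29a passed with scaling over bright miRNAs (-1.02) and with no normalization (-1.51), miR-29b passed with no normalization (-1.03), and with an intensity trend miR-29b (-1.0) and miR-29c (-0.74) passed. With that trend miR-29a went the other way, to an SE of 0.69 and a limma adjusted p of 0.510, against 0.17 and 0.143 as reported. The median of all miRNAs was then at 0.63 with scaling over bright miRNAs and 0.14 with no normalization, and in both all 6 strands shared 1 SE, so the spread there was pooled over all miRNAs. For guide minus passenger, scaling to the 75th percentile over either set and no normalization give the same difference, and in all 3 settings miR-29a (-1.68), miR-29b (-1.20) and miR-29c (-0.86) passed. So did miR-29b with normexp (-1.52), miR-29a (-0.91) and miR-29c (-0.76) with empty spots as 0, and miR-29b (-1.03) and miR-29c (-0.75) with an intensity trend. The limma adjusted p of the miR-29a pair rose to 0.178 with that trend, from 0.0813 as reported. With single arrays left out the guides ranged from -1.09 to -0.62 (miR-29a), -1.25 to -0.65 (miR-29b) and -0.87 to -0.63 (miR-29c), and none passed. Guide minus passenger was then -1.12 to -0.62 (miR-29a), -1.31 to -0.65 (miR-29b, the smallest without acetone replicate 1) and -0.84 to -0.63 (miR-29c).

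Calls over all miRNAs, 2 as reported, were 94 with scaling over bright miRNAs (24 lower, 70 higher), 83 with no normalization (53 lower, 30 higher), 38 with an intensity trend (14 lower, 24 higher), 4 with the floor at the lowest quartile (1 lower, 3 higher), 3 without the repeat-rich families (all higher), 2 with the 75th percentile over all miRNAs (both lower), 1 with the filter on dim miRNAs, 1 with the row trend of the table removed, and 0 with cyclic loess, the mean of the spots, the value table, without the first eighth, or with any array left out. Calls over the pairs, 0 as reported, were 30 with either percentile scaling or no normalization, 20 with an intensity trend, 18 with empty spots as 0, 14 with normexp, 3 without the repeat-rich families, 2 with the row trend removed and 0 to 15 with single arrays left out (14 without shikonin replicate 1 and 15 without shikonin replicate 2, where 1 pooled spread was used). The cause was not tested.

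Arrays of the same number did not deviate together in the same direction (correlation of deviations -0.28 over all miRNAs). With so few arrays in a group, this cannot decide whether arrays of the same number were collected or processed together. The labels do not say, so the pairing stays unknown. With the replicate block 0 miRNAs and 0 pairs passed in limma (116 and 25 at an unadjusted p under 0.05), and adjusted p was 0.231 for miR-29a, 0.210 for miR-29b and 0.217 for miR-29c. The crossed replicate block, chosen after seeing the data, gave 35 miRNAs and 17 pairs. A background threshold taken from the dimmer miRNAs of each array left 10 of 24 strand and array combinations above background, against 11.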

Other observations

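The brightest spots of miR-29a and miR-29c on acetone replicate 1 stood in the upper rows of the table. The 2 spots of miR-29a in the first 17.7% of rows read 13067 and 10226 there, and the other 6 read 1664 to 4449. The 3 spots of miR-29c in the first 14.4% of rows read 1937, 1728 and 1552, and the other 5 read 544 to 752. Part of this was shared between arrays. The miR-29a position that read 10226 was its brightest on both shikonin arrays (3489 and 3409) and on acetone replicate 2 (6049). The brightest spot of miR-29b on acetone replicate 1 (2873) stood lower, at 39.4% of rows, and was its brightest on every array. On shikonin replicate 2 the highest spots of miR-29b* (1104) and miR-29c* (1400) also lay in the first eighth of the table, while the same positions read 320 and 320 on acetone replicate 1. Without the spots of the first eighth the guides were at -0.97 (miR-29a), -1.0 (miR-29b) and -0.68 (miR-29c), and with the row trend removed at -0.74, -0.93 and -0.71. Both settings were chosen after seeing the data.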
